A study of Homo sapiens with 8 samples.

Results

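The genes described here are those of the cytosolic ribosome, the particle that makes nearly all of the proteins of a cell. They were chosen by symbol, as every protein-coding gene of the GENCODE annotation whose name begins with RPL or RPS, without the RPS6 kinases, the paralogues whose symbols end in L1, read-through loci and RPS19BP1, whose product binds a ribosomal protein. Of 101 symbols that matched, 84 genes remained, 50 of the large and 34 of the small subunit, out of 20046 protein-coding genes. The rule uses symbols only, although earlier results of these data were known when it was set. Levels of the 2 Y-linked genes among them are not given, which left 82 genes to describe, and 81 of the 84 had an assembled transcript of their own in 1 or more libraries.

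Each ribosome holds 1 copy of nearly every one of these proteins, so their mRNAs are made in large and roughly matched amounts in every growing cell. The mRNAs carry a terminal oligopyrimidine (TOP) tract, an unbroken run of C and U that starts at the cap and places their translation under the control of mTOR and LARP1. Most of the genes have many processed pseudogenes, which are intronless copies of the mRNA elsewhere in the genome, and many carry small nucleolar RNAs in their introns. A few of the proteins also act outside the ribosome: free RPL5 and RPL11 bind MDM2 and stabilise p53.

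The libraries came from HepG2, a human liver cancer line, and from cells labelled Hep3B, the name of another, with 1 deposited table, called a library here, per line and condition and 8 in all. The treated cells received for 48 h sodium pentaborate pentahydrate (NaB) at 2500 µM in HepG2 or 1700 µM in the cells labelled Hep3B, curcumin at 30 µM with piperine at 6 µM (Cur+Pip), or all agents at these doses (the combination). The control cells had no treatment, and no vehicle was named for them although the curcumin and piperine stocks were made in DMSO. RNA was sequenced with a strand-specific kit, and the deposited tables list transcripts assembled separately in each library with their FPKM, a count of fragments scaled to transcript length and library size.

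Of 20 hepatocyte markers, 16 to 20 were at 1 FPKM or more in the HepG2 libraries and 0 to 2 in libraries labelled Hep3B. Of 7 markers of blood cells, fibroblasts and endothelium, 0 passed that level in HepG2 and 2 to 3 in libraries labelled Hep3B. Most defining markers of a liver line were thus under 1 FPKM in the second line, and it is called here by its label. The libraries held an estimated 25.6 to 35.7 M fragments. Single-exon transcripts made up 22.7%, 34.1% and 32.2% of all transcripts in HepG2 with NaB, Cur+Pip and the combination against 16.4% in the HepG2 control, and 19.1%, 22.4% and 28.4% against 14.7% in libraries labelled Hep3B.

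Most of these genes have a long run of C and T at or near their start. RefSeq promoters of build GRCh38.p14 were found for 65 of the 82 genes, and in 63 of them the start lay within 10 bases of the GENCODE start. The longest run of C and T that reached within 10 bases of the start had a median of 12 bases in the ribosomal protein genes. The median was 4 in all 27305 promoters and 4 in the genes of mitochondrial ribosomal proteins. A run of 8 bases or more stood at 84.6% of the ribosomal protein starts, against 15.2% of all promoters and 13.0% of those of the mitochondrial ribosomal proteins. The sequences below run 5′ to 3′ from 15 bases before the start to 14 after it, with the run of C and T in capitals. They are shown for the stalk pair, for genes whose levels are described later, and for paralogue pairs that share a protein family but not a start.
RPLP1 (chr15:69452803-69452832, plus strand): gtataggcgcgagagCCCCTTTCCTCagct
RPLP2 (chr11:809952-809981, plus strand): ttgcgtcggcgCCTTCCTTTTCCTCCCTgt
RPL41 (chr12:56116618-56116647, plus strand): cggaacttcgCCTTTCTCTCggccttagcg
RPL39 (chrX:119791616-119791645, minus strand): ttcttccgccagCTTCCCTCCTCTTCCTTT
RPS16 (chr19:39435935-39435964, minus strand): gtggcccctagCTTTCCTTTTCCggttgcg
RPS6 (chr9:19380222-19380251, minus strand): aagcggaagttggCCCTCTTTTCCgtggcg
RPS27 (chr1:153990747-153990776, plus strand): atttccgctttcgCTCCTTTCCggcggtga
RPS27L (chr15:63157463-63157492, minus strand): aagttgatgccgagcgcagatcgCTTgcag
RPL36A (chrX:101390996-101391025, plus strand): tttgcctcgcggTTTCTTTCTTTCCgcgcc
RPL36AL (chr14:49620612-49620641, minus strand): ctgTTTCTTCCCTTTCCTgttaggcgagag

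The runs were 11 bases in RPLP1, 17 in RPLP2, 10 in RPL41, 12 in RPS16 and 11 in RPS6, and the run of RPL39 went on past the window to 22 bases. RPS27 had a run of 9 bases and its paralogue RPS27L one of 3, whereas RPL36A and RPL36AL had runs of 13 and 15. Runs that begin before the start were counted in full, as in RPL36AL (from -12) and RPL41 (from -5). The lengths are thus not those of a TOP tract in the mRNA. Within 10 bases of the start, on the sense strand, CTTTCC occurred in 27.7% of the ribosomal protein promoters and 1.06% of all promoters. The shorter word CTTCC occurred in 38.5% and 5.05%, and 33.8% and 3.01% held CTCTT. These words can overlap, and 64.6% of the ribosomal protein promoters held at least one, against 8.25% of all promoters. In the 300 bases of each promoter, on both strands, the ETS core CCGGAAG was found in 33.8% of the ribosomal protein genes, 43.5% of the mitochondrial ribosomal protein genes and 10.9% of all promoters. The YY1 word AAGATGG was found in 12.3%, 34.8% and 6.15% of the same groups, and the E-box CACGTG in 4.62%, 7.25% and 7.43%. TATAAA was found in 9.23%, 4.35% and 11.9%, and the SP1 word GGGCGG in 58.5%, 59.4% and 45.9%. These letters describe the windows and nothing was measured of the factors that can bind them.

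Not every gene had a transcript of its own in every library. A transcript was assigned to the gene on its strand that held 50% or more of its exonic bases, and by that rule 541 of the 656 pairs of gene and library had one. In 96 pairs the coding exons were covered by a transcript assigned to no gene, in 2 by a transcript of a neighbouring gene, and in 17 they were not covered. In HepG2, 70, 66 and 62 of the 82 genes had a transcript of their own with NaB, Cur+Pip and the combination, against 72 in the control. The numbers were 70, 67 and 66 against 68 in libraries labelled Hep3B. Among genes with covered coding exons, 78.5% to 91.1% of the ribosomal protein genes were listed in this way, against 95% to 97.3% of all protein-coding genes. A summed FPKM of 0 therefore says only that the gene was listed at 0. For this reason a second value is given throughout, the coding depth, in which each transcript's FPKM was spread over its own bases and averaged over the coding bases of the gene, on the FPKM scale. It was chosen after the files had been examined.

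RPLP2 shows the difference between both values. Its protein forms the stalk of the large subunit with RPLP0 and RPLP1, yet the gene (chr11:809965-812880) was listed at 0 in all 8 libraries. In each of them its exons lay in a transcript of 5 exons and 965 to 1239 bases that was assigned to no gene. The coding depth of RPLP2 was 279, 293 and 221 in HepG2 with NaB, Cur+Pip and the combination, against 302 in the control. In libraries labelled Hep3B it was 391, 335 and 288, against 184 in the control. RPL10L, a retrocopy of RPL10 known from the testis, was the other gene listed in no library, and its coding exons were not covered in any. In all, 47 of the 82 genes were listed in all 8 libraries, and 79 had covered coding exons in all 8.

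**Figure D1:**
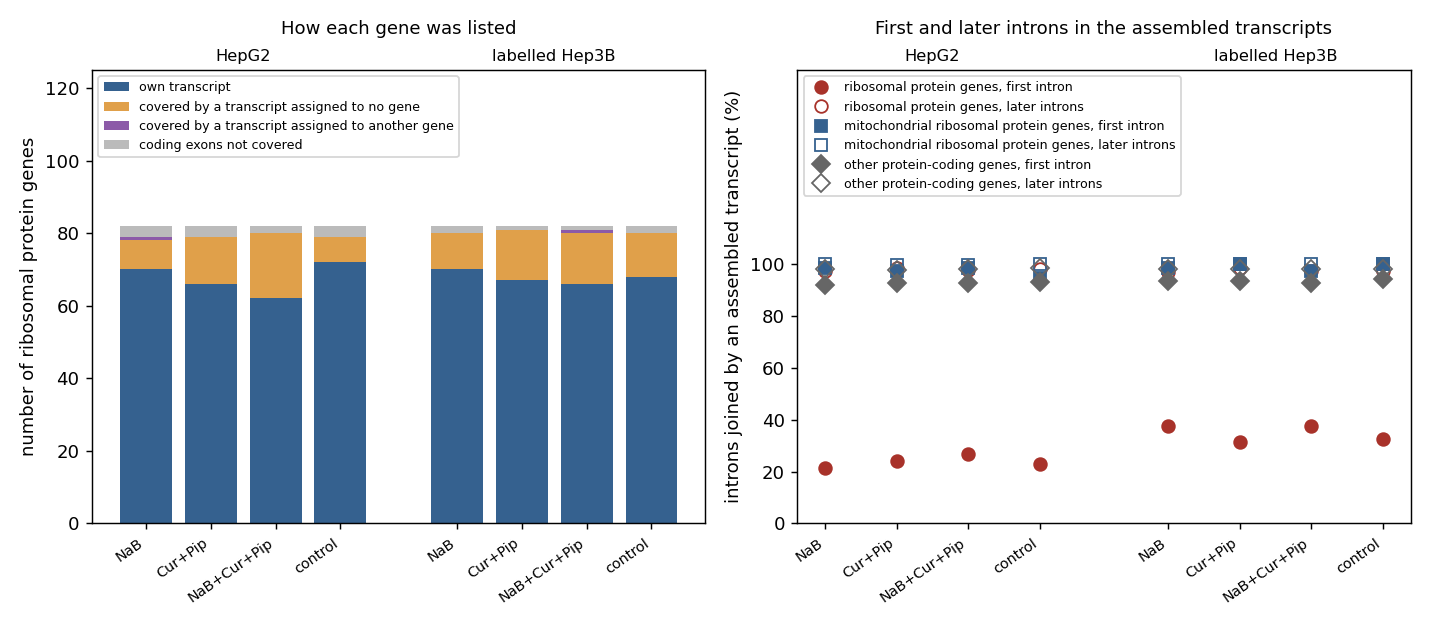
Left, the number of the 82 ribosomal protein genes (y axis) in each library (x axis) by how their coding exons were covered, with 62 to 72 genes listed by a transcript of their own. Right, the percent of introns joined by an assembled transcript in each library, with filled signs for first introns and open signs for later ones; the first introns of the ribosomal protein genes lie between 21.5% and 37.5%, and every other sign lies above 90%.

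The transcripts of these genes stood apart at their first intron. An intron was counted as joined where an assembled transcript that covered its gene had exactly that intron, in genes with a coding depth of 5 or more. In HepG2 the first intron was joined in 21.5%, 24.1% and 26.6% of the ribosomal protein genes with NaB, Cur+Pip and the combination, against 22.8% in the control. It was joined in 37.5%, 31.3% and 37.5% in libraries labelled Hep3B, against 32.5% in their control. The same share was 94.9% to 100% in genes of mitochondrial ribosomal proteins and 92.1% to 94.4% in the other protein-coding genes. Later introns of the ribosomal protein genes were joined in 97.1% to 98.6% of cases, so the gap was at the first intron. In 17 other genes known for a TOP tract, such as those of elongation and initiation factors, 70.6% to 88.2% of first introns were joined.

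Over the 80 genes and 8 libraries there were 636 such pairs. The first intron was joined in 29.2% of them, it was kept within an exon of the assembled transcript in 49.2%, and in 94 pairs the first exon was not covered. The first intron was joined in every library in 13 genes, in none in 44 and in some in 23. The first exons of these genes are short, with a median of 41.5 bases against 176 in 9807 other protein-coding genes, and 62.5% against 5.07% were under 50 bases. Among genes with a first exon under 50 bases, 6% to 28% of the ribosomal protein genes had it joined in a library, against 65.3% to 73.5% of the other genes. The reads themselves were not analysed here, so a retained intron and one that the assembly filled in cannot be told apart.

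Where the join differed between libraries, it mostly went with a higher coding depth. FPKM is scaled to transcript length, and a transcript that keeps the intron is longer. The part of transcript length in the differences below was not tested. In 19 of the 23 genes that differed between libraries the coding depth was higher where the first intron was joined, and the median difference was 1.79 on the log2 scale. The largest differences were 3.88 in RPL37, which was joined in 4 of 8 libraries, and 3.70 in RPL38, which was joined in 2. RPL41 went the other way with -1.84. Of the 4 libraries in which the first intron of RPL37 was joined, all were labelled Hep3B, so that gene's difference is also a difference between the lines.

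The ribosomal protein genes took up 8.30%, 8.47% and 5.70% of the coding depth of all protein-coding genes in HepG2 with NaB, Cur+Pip and the combination, against 7.59% in the control. The shares were 12.4%, 9.95% and 11.8% in libraries labelled Hep3B, against 9.55% in their control. The median coding depth of the genes was 319.7, 267 and 190.2 in HepG2 with NaB, Cur+Pip and the combination, against 302 in the control. It was 524, 431 and 458 in libraries labelled Hep3B, against 449 in their control. The library of HepG2 cells with the combination had the lowest median of the 8, and it also had the fewest estimated fragments and the fewest genes with a transcript of their own. These are relative values, so a fall of these mRNAs and a rise of other mRNAs cannot be told apart. They do not show the number of cells or the amount of RNA per cell.

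**Figure D2:**
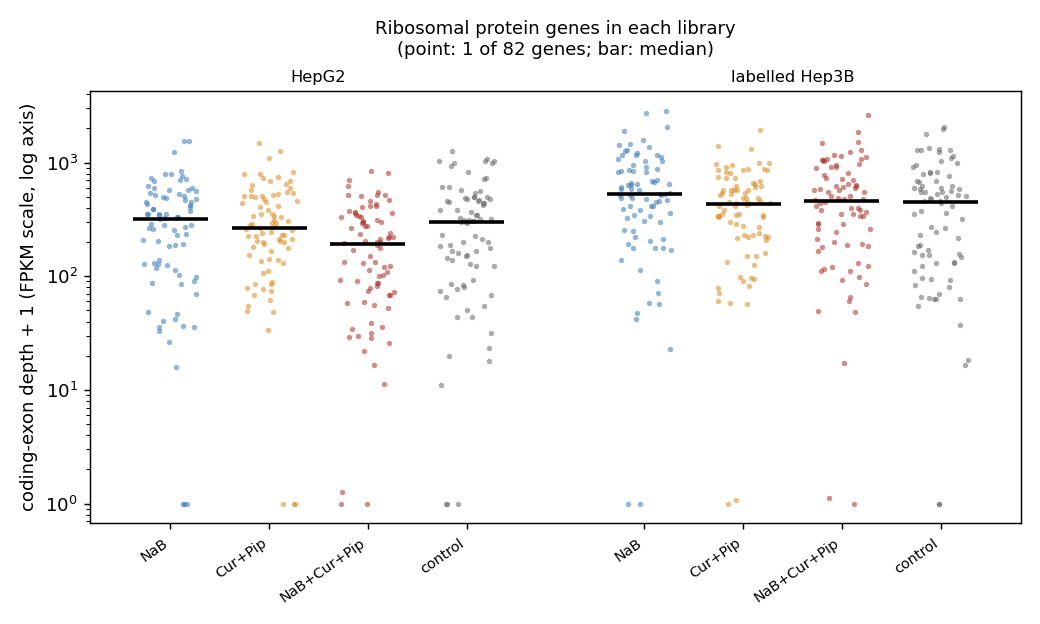
Coding depth plus 1 of the ribosomal protein genes on the FPKM scale (log y axis) in each library (x axis), 1 point per gene, with a bar at the median. The medians lie between 190.2 and 524, and single genes spread over more than 10-fold in every library.

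The 3 highest genes by mean log2(FPKM + 1) among those listed in all 8 libraries were RPS16 of the small subunit, RPL8 of the large subunit and RPLP0, the base of the stalk. RPS16 had a coding depth of 787, 694 and 703 in treated HepG2 against 1028 in the control, and 1294, 1384 and 1292 against 1354 in libraries labelled Hep3B. RPL8 had 1908, 1917 and 1874 against 1977 in libraries labelled Hep3B, a range of 1.05-fold. In HepG2 the same gene had 465, 785 and 199 against 563. RPL8 was thus the steadiest gene in one line and moved by several fold in the other.

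The 3 lowest of the genes listed in all 8 libraries were RPL32, RPS29 and RPL37A. RPL32 had a coding depth of 25.7, 105 and 27.4 in treated HepG2 against 22.2 in the control, and 56.0, 57.7 and 130.1 against 62.0 in libraries labelled Hep3B. Proteins that stand in equal numbers in the ribosome were thus listed with mRNA depths that differed by more than 10-fold within a library, since RPS16 stood at 1028 and RPL32 at 22.2 in the HepG2 control.

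The ratio of the highest to the lowest coding depth over the 8 libraries had a median of 6.19 in the 79 ribosomal protein genes covered in all of them. It was 3.59 in 71 genes of mitochondrial ribosomal proteins and 3.27 in 8039 protein-coding genes. Within HepG2 the medians of the 3 groups were 3.52, 2.29 and 2.07, and within libraries labelled Hep3B 2.71, 1.69 and 1.76. RPS27A, which is made as a fusion with ubiquitin, had the smallest ratio with 1.87, and RPS28 the largest with 54.1. The coding depth of RPS28 was 560.2, 473 and 15.4 in treated HepG2 against 30.6 in the control, and 835, 542 and 450.1 against 92.4 in libraries labelled Hep3B. With 1 library per condition, this spread cannot be split into treatment and library.

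Each treatment was compared with the control of its line by log2((FPKM + 1)/(FPKM + 1)), with 1.5 as the threshold, and counts are over those of the 84 genes that were tested. No test was made within a line, where each condition has 1 library, and the 3 treatments of a line share their control, so that a low or high value in the control moves all 3 folds together. Counts are read against the share of all genes past the threshold.

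With NaB in HepG2, 10 of 78 ribosomal protein genes were past the threshold upward and 8 downward, which is 18 where 9.54% of all genes were past it (4.59% upward and 4.95% downward). Of the 68 genes listed in both libraries, 7 were past it upward and 3 downward, where 3.36% of all genes listed in both were past it. The median log2 fold change was 0.04, against 0 over all genes. By coding depth, 8 of 80 were higher and 6 lower, where 6.02% of all genes were past the threshold (2.39% upward and 3.63% downward), with a median of 0.08 against -0.01.

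In the genes of the small subunit, RPS28 and RPS24 were highest with NaB in HepG2. RPS24, a gene mutated in Diamond-Blackfan anaemia, had a coding depth of 681, 203 and 834 in HepG2 with NaB, Cur+Pip and the combination, against 79.1 in the control. All 3 treated libraries lay above the control, which they share. In libraries labelled Hep3B the gene had 587, 741 and 1071 against 1101, and there the control was the highest.

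In the genes of the large subunit, RPL28 was past the threshold upward with NaB in HepG2 by both values. It had a coding depth of 475 with NaB, 76.3 with Cur+Pip and 71.9 with the combination, against 84.9 in the control, so that only the library with NaB stood apart. RPL21 and RPL23A were the lowest. RPL21 had 41.5, 60.8 and 35.1 in treated HepG2 against 737 in the control. RPL23A had 204, 142 and 112 against 998. Among the HepG2 libraries both genes were high in the control alone, and for both the log2 fold change of coding depth was past -1.5 with every treatment.

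RPL21 and RPL23A have the most processed pseudogenes, 133 and 91 of 1593 that are named after 77 of the genes. The summed FPKM of the pseudogenes of RPL23A was 5418, 811 and 3111 in HepG2 with NaB, Cur+Pip and the combination, against 7.13 in the control. The gene and its copies thus stood on opposite sides, the gene high in the control and the copies high in the treated libraries. With the copies added to the gene, the log2 fold change of RPL23A was 2.10 with NaB and 1.29 with the combination in place of -2.59 and -3.69. The pseudogenes of RPL21 had 8.91, 13.5 and 9.58 in treated HepG2 against 3.95 in the control, far below the gene. The part of read placement between a gene and its copies in these values was not tested.

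Over all pseudogenes of the ribosomal protein genes, the summed FPKM was 10433, 5101 and 8113 in HepG2 with NaB, Cur+Pip and the combination, against 1974 in the control. For libraries labelled Hep3B the sum was 13142, 15801 and 18299, against 8507. Every treated library had a higher sum than the control of its line.

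With Cur+Pip in HepG2, 15 of 78 genes were past the threshold upward and 11 downward, which is 26 where 19% of all genes were past it (8.86% upward and 10.1% downward). Of 63 genes listed in both libraries, 11 were higher and 1 lower, RPL23A, where the share of all such genes was 12.4%. The median was 0.07, against 0 over all genes. By coding depth, 12 of 80 were higher and 6 lower, where 15.9% of all genes were past the threshold (5.41% upward and 10.5% downward), with a median of 0.10 against -0.14. The upward genes included RPL36 of the large subunit, with 39.6, 352 and 458 in HepG2 with NaB, Cur+Pip and the combination, against 18.8 in the control, and RPS25, with 402, 409 and 345 against 82.5. RPL35A had 757, 735 and 550.0 against 127. In these 3 genes the control was the lowest library of the line.

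RPS27L, which is induced by p53 in human cells, was also past the threshold upward with Cur+Pip in HepG2. It had a coding depth of 14.9, 53.9 and 28.2 in HepG2 with NaB, Cur+Pip and the combination, against 10.1 in the control, and a log2 fold change of 2.30 with Cur+Pip. In libraries labelled Hep3B it had 70.3, 96.1 and 65.0 against 62.4, again highest with Cur+Pip, with a log2 fold change of 0.62. Its paralogue RPS27 had 97.6, 73.3 and 33.6 in treated HepG2 against 64.8, and 89.8, 124 and 91.3 against 65.1 in libraries labelled Hep3B. The ratio between the paralogues was therefore smaller in both HepG2 libraries that received Cur+Pip than in the other HepG2 libraries. The value of RPS27L depends on which transcripts are counted as its own, since by depth over all annotated exons its fold with Cur+Pip in HepG2 was -1.22.

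With the combination in HepG2, 7 of 78 genes were past the threshold upward and 23 downward, which is 30 where 19.3% of all genes were past it (7.89% upward and 11.5% downward). Of 60 genes listed in both libraries, 4 were higher and 10 lower, where the share of all such genes was 11.9%. The median was -0.64, against 0 over all genes. By coding depth, 6 of 80 were higher and 17 lower, where 16.1% of all genes were past the threshold (5.16% upward and 11% downward), and 59 of 80 lay below 0 with a median of -0.59 against -0.13. By summed FPKM no other comparison had a median further from that of all genes, while by coding depth NaB in libraries labelled Hep3B was further (0.40 against -0.21). Both subunits were on the same side, with medians of coding depth of -0.62 in 47 genes of the large and -0.55 in 33 of the small subunit. Mitochondrial ribosomal protein genes had a median of -0.30 and the other TOP genes one of -0.40.

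The lower genes held RPS21 of the small subunit, which had 255, 84.2 and 21 in HepG2 with NaB, Cur+Pip and the combination, against 298 in the control. RPS29, a small zinc-binding protein, had 716, 418 and 67.7 against 384, so the library with the combination was the lowest of the 4. Of the genes that were higher, RPL36, RPS24, RPL35A and RPS25 were high with other treatments too, beside the same control. The median was -0.50 over the genes with a transcript of their own in each HepG2 library, and -0.22 with processed pseudogenes added to each gene.

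With NaB in libraries labelled Hep3B, 15 of 76 genes were past the threshold upward and 5 downward, which is 20 where 11.8% of all genes were past it (4.89% upward and 6.94% downward). Of 63 genes listed in both libraries, 8 were higher and 0 lower, where the share of all such genes was 5.78%. The median was 0.25, against -0.12 over all genes. By coding depth, 12 of 80 were higher and 1 lower, RPS19, where 8.72% of all genes were past the threshold (2.59% upward and 6.12% downward), and 56 of 80 lay above 0 with a median of 0.40 against -0.21. Scaling each library by its median ratio to the others moved the median of the genes to 0.43.

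RPL38, which in mice is known for the translation of Hox mRNAs, had a coding depth of 1563, 161 and 1166 with NaB, Cur+Pip and the combination, against 95.3 in the control labelled Hep3B. In HepG2 it had 45.1, 255 and 54.9 against 123. RPS10 had 1157, 735 and 1123 against 246 in libraries labelled Hep3B, and RPL34 had 307, 149 and 189.9 against 79.0. In these 3 genes every treated library labelled Hep3B was above its control. RPS19, the gene most often mutated in Diamond-Blackfan anaemia, went the other way, with 668, 731 and 480.3 against 2035. The first introns of RPL38 and RPS10 were joined only with NaB and the combination labelled Hep3B, where both genes were highest in this line. The part of the assembled structure in their folds was not tested.

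RPS20, a protein of the small subunit head, had a low control in the second line. It had a coding depth of 819, 961 and 1239 with NaB, Cur+Pip and the combination, against 63.3 in the control labelled Hep3B. In HepG2 it had 510.0, 829.8 and 519 against 606. Of the 8 libraries, 7 lay between 510.0 and 1239, so that the 3 folds in this line, 3.67, 3.90 and 4.27 on the log2 scale, rest on 1 control library.

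With Cur+Pip in libraries labelled Hep3B, 11 of 76 genes were past the threshold upward and 8 downward, which is 19 where 10.2% of all genes were past it (6.35% upward and 3.88% downward). Of 62 genes listed in both libraries, 6 were higher and 2 lower, where the share of all such genes was 3.25%. The median was -0.06, against 0 over all genes. By coding depth, 12 of 80 were higher and 3 lower, where 5.1% of all genes were past the threshold (2.39% upward and 2.71% downward), with a median of -0.01 against -0.05. The lower genes included RPL41 and RPL27, with log2 fold changes of coding depth of -2.09 and -1.84. RPS15 had 301, 614 and 296 with NaB, Cur+Pip and the combination, against 111 in the control, and was among the higher genes.

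With the combination in libraries labelled Hep3B, 17 of 76 genes were past the threshold upward and 11 downward, which is 28 where 14.7% of all genes were past it (6.6% upward and 8.09% downward). Of 60 genes listed in both libraries, 11 were higher and 3 lower, where the share of all such genes was 6.94%. The median was 0.07, against -0.05 over all genes. By coding depth, 13 of 80 were higher and 7 lower, where 10.4% of all genes were past the threshold (3.17% upward and 7.21% downward), with a median of 0.19 against -0.17. RPS29 had 46.6, 89.9 and 574 with NaB, Cur+Pip and the combination, against 15.6 in the control, and RPL35 had 384, 93.5 and 1470.1 against 156. RPS12 was the lowest, with 818, 341 and 48 against 811, and RPS14 had 652, 865 and 110.2 against 987. In RPS12 and RPS14 the library with the combination alone was low.

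**Figure D3:**
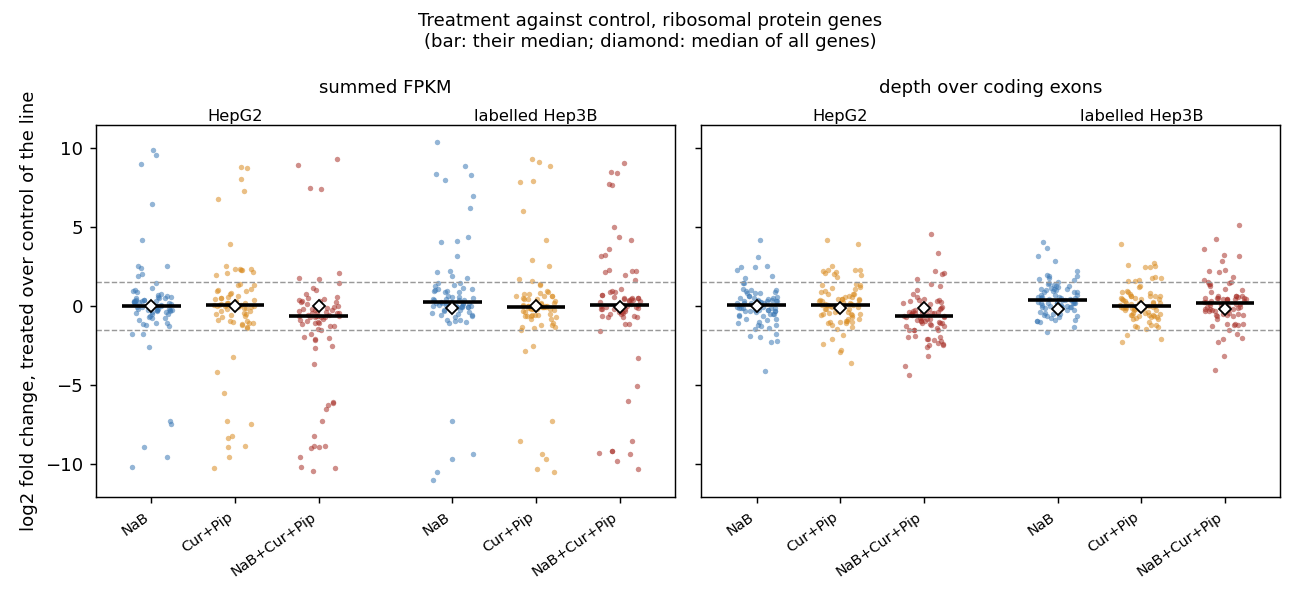
Log2 fold change over the control of the line (y axis) by treatment (x axis), from summed FPKM on the left and coding depth on the right, 1 point per ribosomal protein gene, with a bar at their median, a diamond at the median of all genes and dashed lines at -1.5 and 1.5. Points near -10 and 10 on the left are genes listed at 0 in 1 of the libraries, and on the right the bar for the combination in HepG2 lies at -0.59.

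Changes shared by both lines were tested by fitting limma to log2(FPKM + 1) of the 8 libraries together, with a term for the line and Benjamini-Hochberg adjustment over 15360 genes. RPL41 was the only gene called for a treatment among the 80 of the 82 described genes that were tested. It encodes a very short, highly basic peptide of the large subunit from 75 coding bases (chr12:56116590-56117967). Its summed FPKM was 1758 in HepG2 with NaB against 1188 in the control, and 2435 with NaB against 1232 in libraries labelled Hep3B. In all 4 libraries that received Cur+Pip it was listed at 0. The adjusted p was 0.00248 for Cur+Pip and 0.00411 for the combination, contrasts in which 0.0326% and 0.117% of all genes were called, and no fold is given against a value listed at 0. In the fit with NaB and Cur+Pip as separate terms the adjusted p for Cur+Pip was 0.00011, where 0.013% of all genes were called.

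The coding depth of RPL41 was lower in the libraries with Cur+Pip as well, but not near 0. It was 1555, 130.1 and 216 in HepG2 with NaB, Cur+Pip and the combination, against 998 in the control, and 2046, 289 and 259 against 1232 in libraries labelled Hep3B. The libraries with and without Cur+Pip did not overlap. For Cur+Pip present the log2 difference was -2.71 ± 0.22 (SE, 8 libraries) with a limma adjusted p of 0.0615, a contrast in which 0.00803% of all genes were called, so by this value it missed the threshold. It also missed it for Cur+Pip (-2.51 ± 0.33, adjusted p = 0.387) and the combination (-2.22 ± 0.33, adjusted p = 0.234), where 0.0241% and 0.112% of all genes were called. In the 4 libraries with Cur+Pip, longer transcripts carried the exons of RPL41. They had 16 exons and 3123 bases in HepG2 with Cur+Pip and 17 exons and 2917 bases in the combination labelled Hep3B, both over a second protein-coding gene. The others had 4 exons and 1446 bases and 3 exons and 1281 bases. Leaving out 1 library at a time, the limma adjusted p from summed FPKM was 0.0014 to 0.0041 for Cur+Pip present. The calls for Cur+Pip and for the combination were not kept in any of these runs. Each run leaves 1 library in a condition, so this loss cannot be read as a trait of RPL41.

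No ribosomal protein gene was called for NaB by limma, where 0% of all genes were called. Of the 81 tested, 3 had an unadjusted p under 0.05, beside 738 of 15360 over all genes. By coding depth it was 4 of 81, beside 746 of 12449. For NaB present, with 0.013% of all genes called, there were 0 called and 4 with an unadjusted p under 0.05, beside 1244 of 15360 over all genes. By coding depth it was 5, beside 1438 of 12449. RPS28 had the same direction with NaB in both lines, with log2 fold changes of coding depth of 4.15 in HepG2 and 3.16 in libraries labelled Hep3B, and with Cur+Pip 3.90 and 2.54. With the combination its values were -0.95 and 2.27, which differ in sign. Without transcripts under 300 bases its summed FPKM gave -5.28 with NaB and with Cur+Pip in HepG2, and -6.84 with every treatment labelled Hep3B. These equal values are those of a gene listed at 0 in each treated library, so no direction can be read from them.

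More of the genes were called by limma between the lines than for a treatment. The line term rests on more libraries than the term of a single condition, so these numbers of calls cannot be compared directly. In the limma fit 8 of the 80 described genes were called between the lines, 1 higher and 7 lower in HepG2, where 25% of all genes were called (10.7% higher and 14.3% lower in HepG2). By coding depth 19 of 80 were called, all lower in HepG2, where 37% of all genes were called (16.3% higher and 20.7% lower), and 69 of 80 lay below 0 with a median of -0.75. The share of ribosomal protein genes called was thus no higher than that of all genes. Line and culture cannot be told apart here, and the second line lacks most liver markers, as given above.

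RPL39L is the paralogue of RPL39 that is known from the testis and from some cancers, and both line the exit tunnel of the large subunit. RPL39L (chr3:187120948-187180908) was listed at 0 in the 4 HepG2 libraries. In libraries labelled Hep3B it had an FPKM of 57.6, 78 and 59.4 with NaB, Cur+Pip and the combination, against 82.1 in the control, and limma called it between the lines (adjusted p = 6.4e-04). RPL39 itself had a coding depth of 34.8, 47.1 and 10.4 in treated HepG2 against 42.5, and 484, 219 and 115 against 263 in libraries labelled Hep3B. Every library labelled Hep3B lay above every HepG2 library, with a log2 difference of -2.98 ± 0.31 (SE) and a limma adjusted p of 0.00191. The first intron of RPL39 was joined in all 4 libraries labelled Hep3B and in no HepG2 library. Line and assembled structure thus cannot be told apart for this gene. Its summed FPKM did not show the difference, since RPL39 was listed at 0 in all 4 libraries labelled Hep3B and in HepG2 with Cur+Pip.

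RPL37, a zinc-binding protein of the large subunit, had a coding depth of 35, 77.3 and 29.0 in treated HepG2 against 16.9 in the control, and 537, 869 and 549.6 against 272 in libraries labelled Hep3B. Its log2 difference was -3.88 ± 0.21 (SE, limma adjusted p = 2.6e-04), and the groups did not overlap. As given above, the first intron of RPL37 was joined only in libraries labelled Hep3B. RPSA, the laminin receptor and a protein of the small subunit, had an FPKM of 349, 200.5 and 273 in treated HepG2 against 307, and 1331, 537 and 651 against 623 in libraries labelled Hep3B, with a log2 difference of -1.40 ± 0.25 (adjusted p = 0.0156). RPL8, RPL24 and RPL36A were also called lower in HepG2 by both values. With 1 library left out at a time, the calls by FPKM of RPSA (limma adjusted p = 0.048 to 0.060), RPL8 (0.039 to 0.087), RPL24 (0.031 to 0.10) and RPL36A (0.047 to 0.16) were lost in most runs. RPSA kept its call only without either control, RPL8 only without either combination library, and RPL24 and RPL36A only without either library with Cur+Pip alone. In these runs 12.4% to 14.1% of all genes were called between the lines, against 25% in the full fit. Leaving out the library of either line for a condition gave the same difference, as in RPSA (-1.53 without either control). The calls of RPL39L (0.010 to 0.015) and RPL28 (0.012 to 0.024) held in each run, and the direction of RPL24 turned (1.17) when transcripts were assigned at 80% of their bases. RPL28 was the gene called higher in HepG2 by FPKM, and it was listed at 0 in the 4 libraries labelled Hep3B, where its coding depth was 41.1, 60.0 and 48.9 with the treatments against 17.2 in the control.

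**Figure D4:**
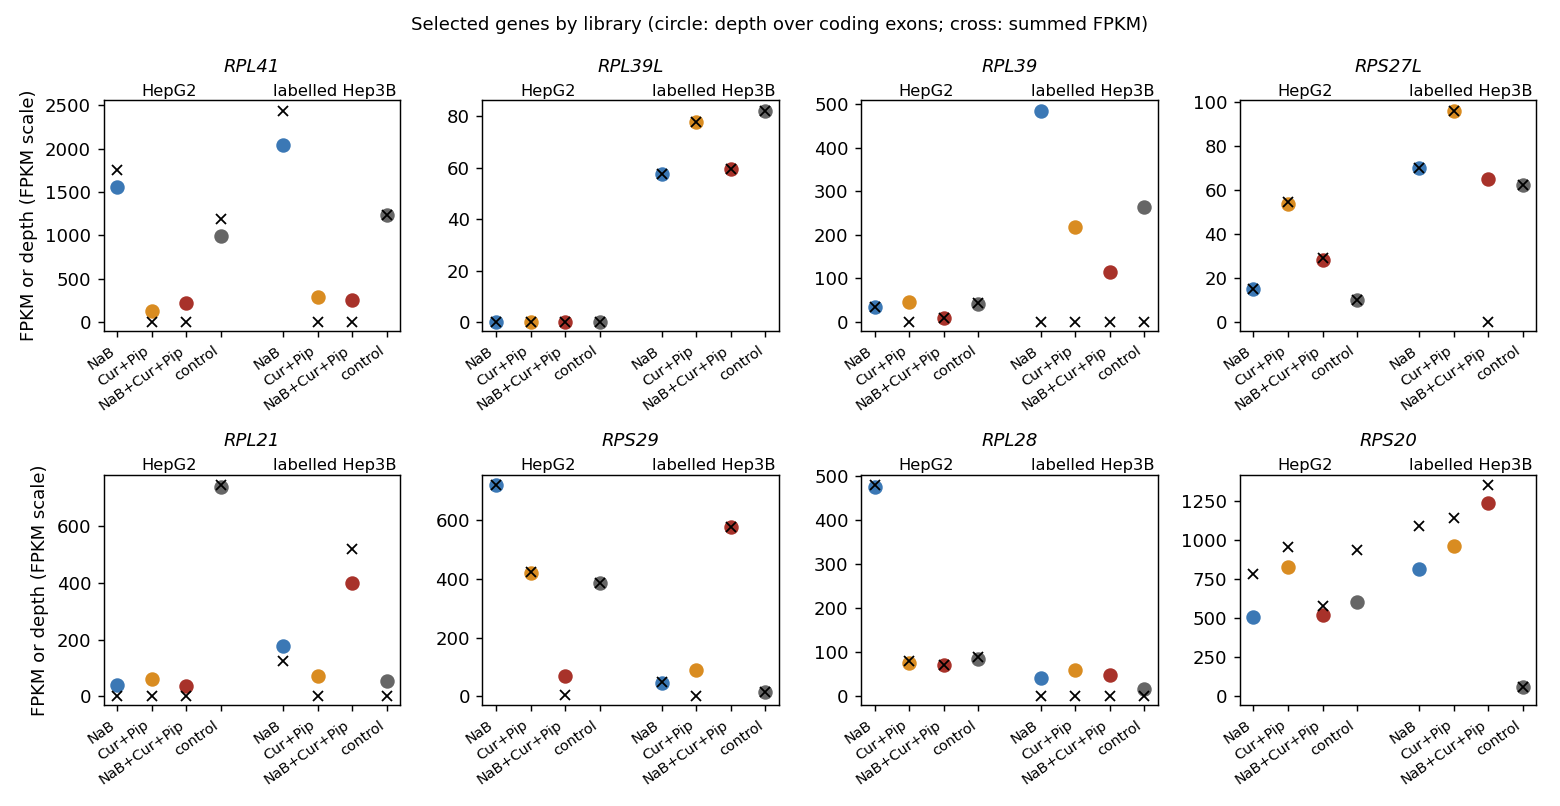
Coding depth (circles) and summed FPKM (crosses) of 8 ribosomal protein genes in each library, on the FPKM scale (y axis). Crosses at 0 beside circles above 0 mark libraries where the gene was listed at 0, such as the 4 libraries of RPL41 with Cur+Pip, and RPL39L has no value above 0 in HepG2.

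RPL36A, on the X chromosome, and its autosomal paralogue RPL36AL differed in where they were high. RPL36A had a coding depth of 47.2, 134 and 37.8 in treated HepG2 against 49.9, and 609, 216 and 1024 against 217 in libraries labelled Hep3B. RPL36AL had 101, 32.8 and 200.04 in treated HepG2 against 176, and 21.8, 56.5 and 16.1 against 36.1 in libraries labelled Hep3B. RPL36AL lay above RPL36A in 3 of the HepG2 libraries and below it in all 4 labelled Hep3B. Of the other pairs, RPL3 of the peptidyl transferase centre had 315, 242 and 335 in treated HepG2 against 484, and 356, 328 and 475 against 527, while its muscle paralogue RPL3L was listed in 1 library, the combination labelled Hep3B, at 3.69 FPKM. RPL10, which joins the large subunit late in its assembly, had 354, 1103 and 356 in treated HepG2 against 495, and 1078.5, 997 and 1058 against 944.

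The stalk proteins bring the elongation factors to the ribosome. RPLP0 had a coding depth of 626, 521 and 812 in treated HepG2 against 923, and 1169.6, 942 and 901 against 1033 in libraries labelled Hep3B, and no treatment moved it past the threshold. RPLP1 had 418, 1476 and 471 in treated HepG2 against 1072, and 954, 984 and 2637 against 825, with a log2 fold change of 1.67 for the combination labelled Hep3B. The 3 stalk genes thus did not move together, although RPLP1 and RPLP2 form dimers.

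RPL5 and RPL11, which hold the 5S RNA of the large subunit and bind MDM2 when free, stayed within the threshold in HepG2. RPL5 had a coding depth of 530.4, 646 and 411 in treated HepG2 against 819, and 1034, 688.5 and 772 against 792 in libraries labelled Hep3B. RPL11 had 188, 332 and 193 against 224, and 409.8, 385 and 165 against 565, with a log2 fold change of -1.77 for the combination labelled Hep3B. RPL23, another protein that binds MDM2, had 68.7, 286 and 119 against 164, and 219, 351 and 121 against 152. RPL23 and RPS27L were highest in the libraries with Cur+Pip alone in both lines. RPS6, the target of the S6 kinases, had 392, 687 and 264 against 492 in HepG2, and 1257, 439.8 and 977 against 522 in libraries labelled Hep3B, always within the threshold.

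Genes around the class were counted from lists that were chosen by function. Of 75 mitochondrial ribosomal protein genes tested in HepG2 by summed FPKM, 15 were past the threshold with NaB, 10 with Cur+Pip and 17 with the combination. These are 20%, 13.3% and 22.7%, where 9.54%, 19% and 19.3% of all genes were past it. Of 76 in libraries labelled Hep3B the numbers were 13, 8 and 11, or 17.1%, 10.5% and 14.5%, where 11.8%, 10.2% and 14.7% of all genes were past it. Of 18 other TOP genes, 0, 1 and 2 were past it in HepG2 with the same treatments, and 0, 1 and 2 in libraries labelled Hep3B. In both lines these are 0%, 5.56% and 11.1%, beside the same shares of all genes. The paralogue RPL22L1, left out by the rule, had a coding depth of 220.6, 39.1 and 49.9 in treated HepG2 against 69.2, and 138, 117 and 134 against 74.5 in libraries labelled Hep3B. Of the ribosomal proteins with other names, RACK1, a scaffold for kinases on the small subunit, had 362, 323 and 90.1 in treated HepG2 against 463, and 1061, 631 and 723 against 843. FAU, which is made as a fusion with a ubiquitin-like protein, had 97.6, 52.0 and 33.9 against 95.6, and 195, 221 and 257 against 67.2.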

How the data were processed

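The authors isolated RNA in triplicate, sequenced it (2 × 150 bases, strand-specific), mapped reads with STAR and assembled them with Cufflinks, and deposited 1 transcript table per line and condition with the FPKM of each transcript. Each table is called a library here, and whether it pools the triplicate was not given. The submitters' notes also name FastQC and Cuffdiff. No version of any tool was given in the labels or methods used here. The other deposited attributes (Cufflinks fractions, coverage, 95% intervals) were used only for estimated fragments and to set intervals side by side. The intervals cover the estimation error of 1 library. No Cuffdiff values were used.

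Transcripts were assigned to GENCODE 44 genes (GRCh38) on the same strand with 50% or more of their exonic bases, and FPKM was summed per gene. Genes at 1 FPKM or more in 1 library of the line were compared by log2((FPKM + 1)/(FPKM + 1)) with a threshold of 1.5, which understates changes of low genes. limma 3.58.1 (R 4.3.3) was fitted to log2(FPKM + 1) over 8 libraries, with line and condition (3 residual degrees of freedom) or line, NaB and Cur+Pip (4 residual degrees of freedom), called at an adjusted p under 0.05. Libraries of 1 line are not replicates, so the spread behind the p-values mixes differences between the lines in response with noise of single libraries. In the fit with NaB and Cur+Pip as separate terms it also holds any departure from added effects. With 1 library per line and condition these parts cannot be told apart. Alternatives were depth over annotated exons, transcript and FPKM filters, pseudogenes added, assignment at 80%, scaling, pseudocounts, thresholds and leaving out each library. Depth over coding exons was added after the data had been examined. Python 3.11.15, pandas 2.3.3, numpy 2.4.6, bedtools 2.31.1 and matplotlib 3.10.9 were used. The folds and limma fits were tested on simulated data.

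The genes and lists were chosen with earlier results of these data known. Genes were named by rule: paralogue pairs, the stalk, RPL5, RPL11, RPL23 and RPS6, the 3 highest and lowest, the 2 highest and 2 lowest per comparison, those past the threshold by FPKM and exon depth (at most 5), those called by limma, and those listed at 0 in a library. RPS27A, RPL24 (called by limma beyond the first 5) and genes outside the class were named after their values were seen. Some genes that the rule names are not reported here.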

Additional observations from a re-analysis of the deposited data

Results flagged for a closer look

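In 3 genes described here the coding depth moved past the threshold in opposite directions in the lines under the same treatment, each against 1 control library, and the difference between the lines was not tested. How many of all genes did so was not counted. RPL21 had a log2 fold change with NaB of -4.12 in HepG2 and 1.68 in libraries labelled Hep3B, and with the combination of -4.35 and 2.86. RPL13 had -1.88 and 1.65 with NaB, and -2.08 and 1.53 with the combination. Its coding depth was 124, 354 and 108 in HepG2 with NaB, Cur+Pip and the combination against 458, and 414, 149 and 380.3 against 131 in libraries labelled Hep3B, so that Cur+Pip alone stood near the control in both lines. RPS29 had -2.49 and 5.12 with the combination. RPL21 was listed at 0 in 5 of the 8 libraries and RPL13 in 7. The transcript that carried the exons of RPL13 had 6531, 2063 and 5054 bases in HepG2 with NaB, Cur+Pip and the combination. In libraries labelled Hep3B it had 2397, 5434 and 2474 bases, against 6390 in the control. The longer of these transcripts stood at the lower depths, and the part of transcript length in these folds was not tested.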

How the results depend on the processing

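The limma fits have the line as a term and so set treated against control within each line. No further block by replicate number could be fitted, since each line had 1 library per condition. The numbers of ribosomal protein genes past the fold threshold were 18, 26 and 30 in HepG2 with NaB, Cur+Pip and the combination, and 20, 19 and 28 in libraries labelled Hep3B. Fewer genes were tested when only those with a transcript in every library of the line were kept. The numbers were then 10, 12 and 12 of 56 in HepG2, where 3.15%, 12.2% and 11.7% of all such genes were past the threshold. In libraries labelled Hep3B they were 8, 8 and 11, for which the share of all such genes is not given here. By depth over annotated exons 9 (11.3%, against 8.12% of all genes), 14 (17.5%, against 16.7%) and 21 (26.3%, against 17.4%) of 80 were past it in HepG2 with NaB, Cur+Pip and the combination, and 13 (16.3%, against 10.3%), 12 (15%, against 8.59%) and 15 (18.8%, against 13.1%) in libraries labelled Hep3B, where coding depth gave 13 with NaB. limma called 1 gene each for Cur+Pip, the combination and Cur+Pip present, and 0 for each by depth over annotated exons, by coding depth, and over genes listed in all 8 libraries. It called 0 for Cur+Pip with pseudogenes added, 2 for the combination without transcripts across 2 or more protein-coding genes, and 2 (Cur+Pip), 3 (combination) and 2 (Cur+Pip present) with assignment at 80%. Between the lines 9 of 81 genes tested were called (25% of all genes), 17 by depth over annotated exons (29.6%), 20 by coding depth (37%) and 2 of 75 with assignment at 80% (17.3%). Leaving out each library in turn gave 0 calls for NaB present and 1 to 3 for Cur+Pip present. Between the lines it gave 4 to 6, where 12.4% to 14.1% of all genes were called. Each such run leaves 1 library in a condition, so for NaB, Cur+Pip and the combination it cannot show how a call depends on single libraries.

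Some log2 fold changes reversed. With pseudogenes added these were RPL23A (2.10 with NaB and 1.29 with the combination in HepG2), RPL39 (0.68) and RPS4X (1.56) with the combination in HepG2, and, in libraries labelled Hep3B, RPS4X (2.52) and RPS29 (3.35) with Cur+Pip and RPL37A (-0.61 with NaB, -0.66 with the combination). Without transcripts under 300 bases RPS28 had -5.28 with NaB and Cur+Pip in HepG2 and -6.84 with every treatment labelled Hep3B. By depth over annotated exons RPL37A had -1.16 and RPS27L -1.22 with Cur+Pip in HepG2, and RPS29 had 2.43 with Cur+Pip labelled Hep3B (2.45 by coding depth). With assignment at 80% RPS27L had -2.51 with Cur+Pip in HepG2, RPS29 had 0.54 with Cur+Pip and RPLP1 -9.69 with the combination labelled Hep3B, and the line difference of RPL24 was 1.17. The cause was not tested. Depth limits single libraries only through the Cufflinks intervals, which for RPL41 were 1686 to 1829 FPKM with NaB and 1105 to 1271 in the control of HepG2.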
